A study of Mus musculus with 2 samples.

Results

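A set of 10 genes of bone morphogenetic protein (BMP) signalling was followed in fetal mouse intestine: the ligands Bmp2, Bmp4, Bmp5 and Bmp7, the receptor Bmpr1a, the secreted antagonists Nog and Grem1, and the target genes Id1, Id2 and Id3. They were taken by symbol, and all 10 of 10 matched a single protein-coding entry among 43346 mouse gene identifiers in each library. Whole intestine came from B6NCrl mouse embryos at day 16.5, described as healthy, and its total RNA above 200 nt in size was sequenced. The 2 libraries form 1 group, each made with 10 ng of RNA from a separate pool that mixes both sexes, with 41 embryos in the pool of replicate 2. The sources used here give no such number for replicate 1, and the labels list both pools under the same donor identifier. No condition was varied, so the comparisons are between genes within the tissue and between the 2 pools.

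BMPs are secreted dimers that bind pairs of type I and type II receptor kinases on the cell surface. The activated type I receptor phosphorylates SMAD1, SMAD5 and SMAD9, which join SMAD4 in the nucleus and switch on targets such as the ID genes. ID proteins have a helix-loop-helix but no DNA-binding region, and they hold E proteins and other helix-loop-helix factors away from DNA. In the gut, BMP ligands come from both mesenchyme and epithelium, and the antagonists Noggin and Gremlin 1 bind ligands outside the cell and keep them from their receptors.

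The 3 ID genes are shown first by the part of their coding sequence that is most alike, because their summed RNA carries the largest share of the values below and because near-identical stretches could let reads be assigned to the wrong gene. For each window of 90 bases in Id1, in steps of 3 bases, the best match in Id2 and in Id3 was taken. The window shown had the most shared bases summed over the 3 pairs of genes. On the sense strand of GENCODE M21 transcripts, it spans coding bases 109 to 198 of Id2-201, 124 to 213 of Id3-201 and 178 to 267 of Id1-201. It reads as follows, with capitals marking the 56 bases that are the same in all 3 genes.
Id2: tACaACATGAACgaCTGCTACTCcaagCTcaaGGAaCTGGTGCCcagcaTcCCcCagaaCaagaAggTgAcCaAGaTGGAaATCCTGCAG
Id3: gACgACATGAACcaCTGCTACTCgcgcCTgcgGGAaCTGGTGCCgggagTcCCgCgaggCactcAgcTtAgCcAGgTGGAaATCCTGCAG
Id1: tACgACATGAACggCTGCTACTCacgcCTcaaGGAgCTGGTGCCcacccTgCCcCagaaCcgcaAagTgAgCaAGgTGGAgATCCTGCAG

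The longest run of bases that Id2 and Id3 transcripts shared was 19, Id3 and Id1 shared at most 12, and Id2 and Id1 at most 11. Over the aligned coding bases, identity was 74.5% for Id2 and Id1, 69.0% for Id3 and Id1 and 67.8% for Id2 and Id3. Among the ligands it was 68.4% for Bmp4 and Bmp2 and 70.6% for Bmp7 and Bmp5. Over all 45 pairs of the 10 genes the longest shared run was 28 bases, between Bmp4 and Bmp7. The estimated counts of 8 of the 10 genes were whole numbers in both libraries, and those of Bmp5 and Bmpr1a were not.

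Levels are given in TPM, a transcript abundance scaled to the same total in each library, which corrects for transcript length and so allows genes to be set side by side, as the value in each library and as mean ± SD (n = 2). The labels' tissue showed in its markers: all 6 epithelial and all 5 smooth muscle markers were detected, meaning a TPM of at least 1 in both libraries. Genes of neighbouring organs were also read, with 4 pancreatic markers summing to 5547 TPM in replicate 2 and 4280 in replicate 1, and 4 liver markers summing to 244 and 427 TPM. In the same order, the 6 epithelial markers summed to 2487 and 2480 TPM, and the 5 smooth muscle markers to 3364 and 3480. Of 4 stomach markers 2 were detected, Tff2 at 6.13 TPM in replicate 2 and 4.42 TPM in replicate 1, and Atp4a at 1.26 and 1.89 TPM. Gkn1 was at 0.06 and 0.03 TPM, and Muc5ac was at 0 in both libraries. The levels below are those of the whole sample, and the part of other organs in them was not tested. Library totals were 41480301 expected counts in replicate 2 and 42040766 in replicate 1, and the 10 genes summed to 681 and 682 TPM.

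The ligands differed widely in level, with Bmp4 far ahead. Bmp4 (ENSMUSG00000021835.10; mm10 chromosome 14, 46383520 to 46390669, minus strand), a ligand made mainly by gut mesenchyme, stood at 51.4 TPM in replicate 2 and 57.1 TPM in replicate 1. Both libraries placed it above every other ligand. By mean TPM it stood above 77.5% of the protein-coding genes detected in the tissue. Bmp7 (ENSMUSG00000008999.7; chromosome 2, 172868012 to 172940321, minus strand) was second at 21.1 TPM in replicate 2 and 16.7 TPM in replicate 1. Bmp2 (ENSMUSG00000027358.6; chromosome 2, 133552159 to 133562885, plus strand), the closest relative of Bmp4 in its family, stood at 12.2 and 10.4 TPM in replicates 2 and 1. Bmp5 (ENSMUSG00000032179.7; chromosome 9, 75775364 to 75900310, plus strand), which groups with Bmp7, was lowest of these ligands at 6.63 TPM in replicate 2 and 6.16 TPM in replicate 1. The ranges of the 4 ligands over the 2 libraries did not overlap, so their order was the same in both. In bulk tissue, fewer cells making a ligand and less RNA per cell cannot be told apart.

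Of the summed TPM of the 4 ligands, Bmp4 made up 56.2% in replicate 2 and 63.2% in replicate 1, or 59.7% ± 4.92 (SD, n = 2). The means of the others were, for Bmp7, 20.8% ± 3.25, for Bmp2 12.4% ± 1.36 and for Bmp5 7.04% ± 0.308. Bmp4 stood above Bmp2 by 4.20-fold in replicate 2 and 5.51-fold in replicate 1. It stood above Bmp7 by 2.44-fold in replicate 2 and 3.42-fold in replicate 1, and above Bmp5 by 7.75-fold and 9.26-fold. Bmp7 exceeded its relative Bmp5 by 3.18-fold in replicate 2 and 2.71-fold in replicate 1. A ratio counted as apart where its log2 value kept its sign in each library and averaged more than 3 SD from 0, which all 10 of the 10 ratios examined did, sums by role included. Without division by length, in counts scaled to library size, the share of Bmp4 was 43.8% and its ratio to Bmp7 was no longer apart (log2 of Bmp7 over Bmp4 was -0.69 ± 0.39). On that scale Bmp4 stood above Bmp2 by 2.42-fold and above Bmp5 by 3.96-fold, against 4.81-fold and 8.47-fold in TPM (geometric means of the 2 libraries). The major Bmp4 transcript is 2064 bases long, against 3555 bases for Bmp2, 3670 for Bmp7 and 3822 for Bmp5. With 2 libraries of 1 group the smallest exact two-sided sign-flip p is 0.5, so no test was made.

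Bmpr1a, a type I receptor through which BMP2 and BMP4 signal (ENSMUSG00000021796.10; chromosome 14, 34410734 to 34503341, minus strand), stood at 13.25 TPM in replicate 2 and 9.41 TPM in replicate 1. The 2 values lie farther apart, for their size, than those of any other of the 10 genes. Its mean of 11.3 TPM could not be told from that of Bmp2, since the ranges of the 2 genes overlapped. Of the summed TPM of 4 type I receptors, it made up 29.5% in replicate 2 and 22.7% in replicate 1.

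Nog and Grem1 were low and unequal. Grem1 (ENSMUSG00000074934.3; chromosome 2, 113746164 to 113758646, minus strand), whose protein binds BMP2 and BMP4 in particular, stood at 6.17 TPM in replicate 2 and 7.55 TPM in replicate 1. Its range overlapped that of Bmp5, so the order of these 2 genes is not settled by the libraries. Nog (ENSMUSG00000048616.4; chromosome 11, 89300638 to 89302332, minus strand), which encodes Noggin, stood at 1.16 TPM in replicate 2 and 1.15 TPM in replicate 1. These values rest on 53 and 54 expected counts, with exact 95% Poisson intervals of 39.7 to 69.3 and 40.6 to 70.5 counts, which cover counting error only. Nog was the lowest of the 10 genes in both libraries, and by mean TPM 13234 detected protein-coding genes stood above it. Grem1 held 85.5% ± 1.84 of the summed TPM of these 2 antagonists and stood above Nog by 5.91-fold in the geometric mean, or 14.98-fold in counts without length. The 4 ligands together exceeded Nog and Grem1 together by 12.5-fold in replicate 2 and 10.4-fold in replicate 1, a geometric mean of 11.4-fold that was 7.32-fold in counts without length. This ratio holds for these genes and not for their roles as a whole: over all 14 ligands and 15 antagonists examined, the ligands summed to 104 TPM and the antagonists to 305 TPM in replicate 2, and to 103 and 314 TPM in replicate 1. Most of the antagonist sum was Fstl1, at 178 and 194 TPM in replicates 2 and 1, and Twsg1, at 52.5 and 51.0 TPM. Without both genes, the antagonists summed to less than the ligands in each library.

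The ID genes were the highest of the 10. Id2 (ENSMUSG00000020644.8; chromosome 12, 25093799 to 25097140, minus strand) stood at 289 TPM in replicate 2 and 273 TPM in replicate 1. Id3 (ENSMUSG00000007872.3; chromosome 4, 136143497 to 136145755, plus strand) stood at 198 TPM in replicate 2 and 209 TPM in replicate 1. Id1 (ENSMUSG00000042745.9; chromosome 2, 152736251 to 152737410, plus strand) stood at 82.0 TPM in replicate 2 and 91.5 TPM in replicate 1. The lower library of each of these genes lay above the higher library of the next. Id2 lay above 95.8% of detected protein-coding genes, Id3 above 94.1% and Id1 above 85.5%. Id2 exceeded Id3 by 1.46-fold in replicate 2 and 1.30-fold in replicate 1, and Id3 exceeded Id1 by 2.41-fold and 2.29-fold. Their summed TPM was 569 in replicate 2 and 573 in replicate 1, which is 6.23-fold and 6.35-fold the sum of the 4 ligands. In counts without length this ratio was 2.95-fold, against 6.29-fold in TPM. These genes also respond to signals other than BMP, and the data give no value for the part of each.

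**Figure D1:**
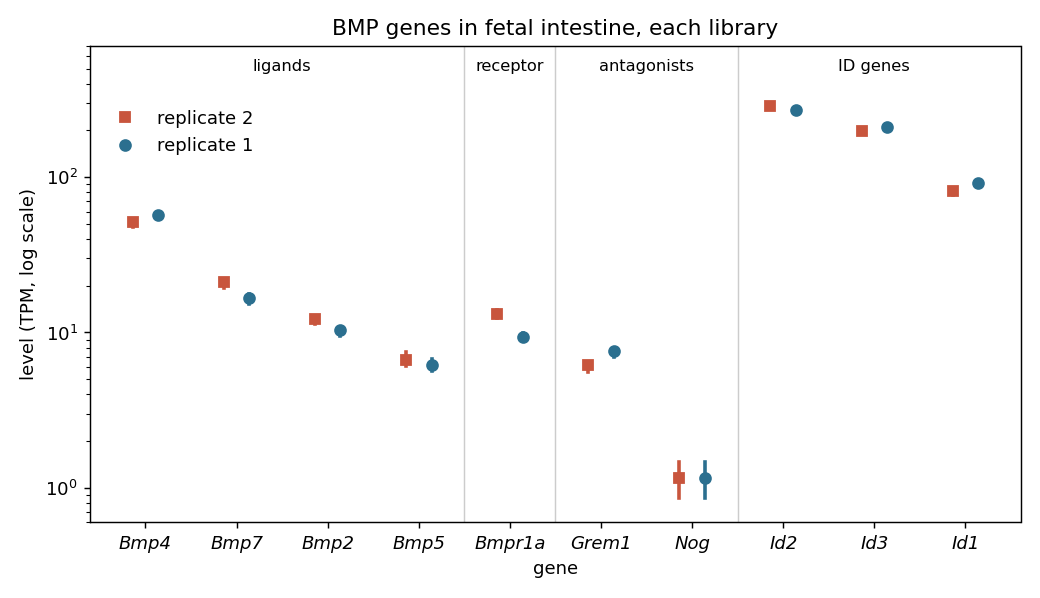
Level in TPM (log scale) of each BMP gene in replicate 2 (squares) and replicate 1 (circles), grouped by role. Bars are the authors' deposited intervals, which need not hold the plotted value. The ID genes lie between 82.0 and 289 TPM, Bmp4 leads the ligands at 51.4 and 57.1 TPM, and Nog lies at the bottom at 1.16 and 1.15 TPM.

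From highest to lowest mean TPM the order was Id2, Id3, Id1, Bmp4, Bmp7, Bmpr1a, Bmp2, Grem1, Bmp5 and Nog, a span of 243-fold. Of the 9 neighbouring pairs, 7 did not overlap in their ranges, and the same 7 also had deposited intervals apart in each library. The exceptions were Bmpr1a with Bmp2 and Grem1 with Bmp5. The median of the 10 genes was 15.1 TPM, beside 17.1 TPM for all detected protein-coding genes, with 5 members above and 5 below that value. In counts without length, Bmp4 moved above Id1 and Bmpr1a above Bmp7, while Id2 and Id3 stayed the highest and Nog the lowest.

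Promoter sequence was read for the ID genes because they are the targets at the end of the pathway. The RefSeq table (GRCm38.p6) held 300 bases, from 250 before to 50 after the start, for 6 of the 10 genes, Bmp4, Bmp5, Bmpr1a, Grem1, Id2 and Id3. These were searched on both strands for GGCGCC, a GC-rich sequence that SMAD1 and SMAD5 can bind, and for GTCT, a short sequence that SMAD proteins can bind. GGCGCC reads the same on both strands, and as spelled the 2 motifs cannot overlap each other. The start is that of RefSeq, and the Id2 and Id3 windows lie wholly inside the GENCODE spans of these genes given above. The Id2 promoter (chr12:25096043-25096342, minus strand) and the Id3 promoter (chr4:136143572-136143871, plus strand) follow, with matches to either motif in capitals.
Id2: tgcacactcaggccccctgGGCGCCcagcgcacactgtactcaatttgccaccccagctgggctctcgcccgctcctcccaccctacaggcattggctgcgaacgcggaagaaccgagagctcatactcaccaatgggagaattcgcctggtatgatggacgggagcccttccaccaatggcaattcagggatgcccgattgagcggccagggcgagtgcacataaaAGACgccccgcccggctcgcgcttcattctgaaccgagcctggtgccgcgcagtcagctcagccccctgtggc
Id3: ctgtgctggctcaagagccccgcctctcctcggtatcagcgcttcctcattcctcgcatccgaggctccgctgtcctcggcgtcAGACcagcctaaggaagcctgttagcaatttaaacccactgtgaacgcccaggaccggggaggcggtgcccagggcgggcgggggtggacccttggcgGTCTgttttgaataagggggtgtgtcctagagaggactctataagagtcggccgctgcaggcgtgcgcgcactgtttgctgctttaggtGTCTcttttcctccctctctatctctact

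The Id2 promoter held 1 match to GGCGCC and 1 to GTCT, and the Id3 promoter held 0 and 3. Among 27025 mouse promoters of the same length, 11.96% held GGCGCC and 88.0% held GTCT, so a match to the shorter motif is the rule. The Grem1 promoter held 1 match to GGCGCC and 6 to GTCT, the Bmpr1a promoter 1 and 1, the Bmp4 promoter 0 and 2, and the Bmp5 promoter 0 and 1. G and C made up 63.3% of the Id2 window, 70.7% of Grem1 and 79.3% of Bmpr1a. They made up 64% for Bmp4, 60% for Id3 and 43.3% for Bmp5, beside a median of 52.7% over all promoters. The shares over all promoters were not matched for this content, so they are no measure of enrichment in these windows. GGCGCC followed by NNNNN and GTCT, a spaced form known from BMP-responsive elements, was in 0 of the 6 windows and in 0.0703% of all promoters. TATAAA was in 0 of the 6 and in 14.2% of all. A match describes letters in this window only.

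Most of these genes were read from a single main transcript. Of the 10 genes, 4 had 1 annotated transcript (Bmp2, Nog, Grem1 and Id2), and in each of the other 6 both libraries had their largest share in the same transcript. Bmp4-201 held 69.5% of Bmp4 TPM in replicate 2 and 71.8% in replicate 1. Bmp4-202, whose coding sequence is identical to that of Bmp4-201 over 1224 bases, held 20.7% and 20.4%. The remaining 9.83% and 7.79% was the retained-intron transcript Bmp4-203, which is short, so that it took 2.38% and 1.85% of Bmp4 counts. For Bmp7, Bmp7-201 held 84.1% of TPM in replicate 2 and 81.8% in replicate 1, and the retained-intron transcript Bmp7-202 held 15.9% and 18.2% of TPM with 4.46% and 5.20% of counts. With coding transcripts alone, Bmp4 stood at 46.3 TPM in replicate 2 and 52.6 TPM in replicate 1 and Bmp7 at 17.7 and 13.65 TPM, and the share of Bmp4 among the ligands was 59.7%.

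Id1-201 held 96.0% of Id1 in each library, and Id1-202, with a coding sequence of 504 bases in place of 444, held 3.96% in replicate 2 and 4.01% in replicate 1. Id3-201 held 95.4% and 95.6% of Id3 in replicates 2 and 1, with 4.56% and 3.93% in the retained-intron transcript Id3-203. Bmpr1a-201 held 95.1% in replicate 2 and 97.5% in replicate 1. Bmp5-201 held 100% in both libraries, and Bmp5-202 was listed at 0. By the other deposited estimate of TPM, a posterior mean, Bmp5-202 held 4.14% in replicate 2 and 2.71% in replicate 1. Exons of Bmp4, Bmp5 and Bmpr1a overlap those of a gene on the opposite strand, Gm15217, Gm26903 and Gm17110, and the sources used here do not say whether strand was recorded. Each of these partners was at or under 0.18 TPM in both libraries.

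**Figure D2:**
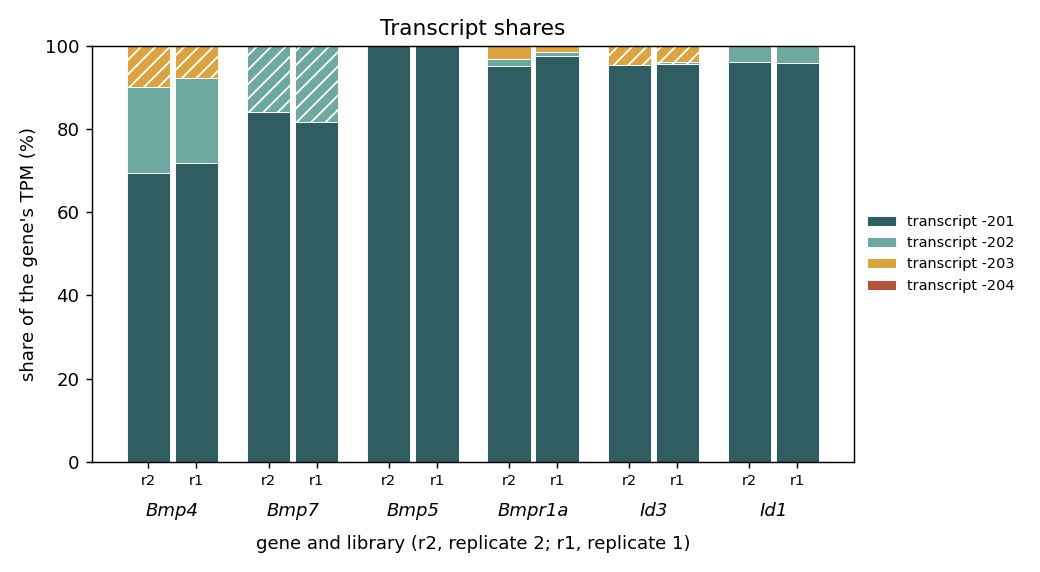
Share of each gene's TPM (%, stacked to 100) held by each annotated transcript in replicate 2 (r2) and replicate 1 (r1) for the 6 genes with more than 1 transcript, with hatching for transcripts annotated as non-coding. Bmp4 is the most divided, with 69.5% and 71.8% in Bmp4-201, and the other genes have over 80% in 1 transcript.

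Between the 2 pools, the levels of all 10 genes lay within 1.5-fold. The ratio was taken as log2 of TPM + 0.1 in replicate 2 over replicate 1, relative to the median of the protein-coding genes that averaged 1 TPM or more, a scale that understates changes of low genes. None of the 10 genes was past 1.5-fold, where 520 of 13509 genes (3.85%) were. The median absolute log2 ratio was 0.14 for the 10 genes and 0.12 for all 13509. Bmpr1a had the largest ratio, 1.42-fold higher in replicate 2, followed by Bmp7 at 1.28-fold, Bmp2 at 1.19-fold, Bmp5 at 1.09-fold and Id2 at 1.07-fold. Grem1 was lower in replicate 2 by 1.21-fold, Id1 by 1.10-fold, Bmp4 by 1.10-fold and Id3 by 1.05-fold, and Nog differed by 1.02-fold.

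The authors' deposited intervals of the 2 libraries, which reflect read counting and assignment and not the spread between pools, were apart for 8 of the 10 genes, 4 higher and 4 lower in replicate 2. The exceptions were Bmp5 and Nog. Over all 13509 genes the intervals were apart for 25.4%, and over the 9842 genes with a mean of at least 500 expected counts, which include 9 of the 10, for 31.2%. At a lower threshold, a difference of 25%, Bmp7 and Bmpr1a were past it, beside 12.8% of all genes. Some marker sums also differed between the pools. The 6 mesenchymal markers summed to 2272 TPM in replicate 2 and 2079.5 in replicate 1, and the 5 enteric nervous system markers to 90.9 and 106. The 3 erythroid markers, the largest sum, stood at 7371 and 8816 TPM, and the pancreatic and liver sums differed as given above. The 6 epithelial markers summed to 2487 and 2480 TPM, but 5 of them were higher in replicate 2 and 1, Krt8, was lower. Their median log2 ratio was 0.092, beside 0.125 for the mesenchymal markers. The part of tissue makeup in the ratios of the 10 genes was not tested.

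**Figure D3:**
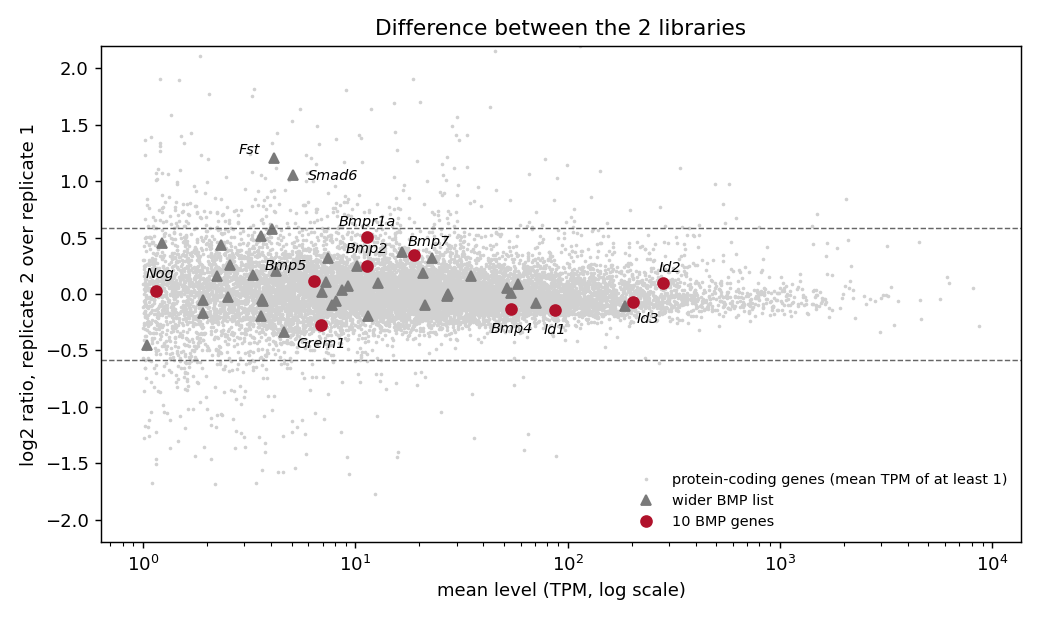
Log2 ratio of replicate 2 over replicate 1 against mean level in TPM (log scale) for the 10 BMP genes (red circles), the wider BMP list (grey triangles) and protein-coding genes averaging 1 TPM or more (light points), with dashed lines at 1.5-fold and 19 of 13509 genes outside the axis. All 10 BMP genes lie between the lines, and Fst and Smad6 of the wider list lie above them.

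A wider list of 54 further genes of the pathway was read beside the 10, and 39 of the 54 were detected, compared with 13311 of 21474 protein-coding genes (61.99%). Among 10 further ligands only 2 were detected, Bmp3 at 9.39 TPM in replicate 2 and 9.05 TPM in replicate 1, and Gdf6 at 1.42 and 1.02 TPM. Bmp3, a family member that does not activate the pathway on its own, thus lay between Bmp2 and Bmp5. The lowest, Bmp10, had no count in either library, which allows up to 0.0862 TPM in replicate 2 and 0.0837 TPM in replicate 1. The 4 ligands described above made up 87.6% and 87.7% of the TPM of all 14 ligands in replicates 2 and 1. Of the proteases that cut and release BMPs and related proteins, Pcsk5 stood at 22.9 ± 3.44 TPM, Bmp1 (a metalloprotease and not a BMP ligand) at 20.9 ± 1.75, Furin at 7.46 ± 1.13 and Pcsk6 at 1.905 ± 0.0636. Tll1 stood at 0.495 ± 0.0778 TPM and was not detected.

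Some other antagonists were far more abundant than Nog and Grem1, and 10 of the 13 examined were detected. The secreted glycoprotein Fstl1 stood at 178 TPM in replicate 2 and 194 TPM in replicate 1, and Twsg1, which binds BMPs together with chordin, stood at 52.5 and 51.0 TPM. The lowest was Cer1 at 0.04 and 0.06 TPM. Nog and Grem1 together made up 2.40% of the TPM of all 15 antagonists in replicate 2 and 2.77% in replicate 1. Fst, which encodes follistatin, a binder of activins and some BMPs, stood at 5.80 TPM in replicate 2 and 2.48 TPM in replicate 1, a ratio of 2.31-fold that rests on 371 and 163 expected counts.

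On the receiving side, the endothelial type I receptor Acvrl1 stood at 26.6 TPM in replicate 2 and 27.2 TPM in replicate 1, above Bmpr1a in each library. Acvr1 was at 4.51 and 3.93 TPM in replicates 2 and 1, and Bmpr1b, at 0.60 and 0.95 TPM, was not detected. All 3 type II receptors were detected, Acvr2a at 10.2 ± 1.20 TPM, Acvr2b at 4.06 ± 1.13 and Bmpr2 at 3.64 ± 0.106. Of 4 co-receptors and decoys, the endothelial co-receptor Eng stood at 58.6 ± 2.04 TPM, Rgmb at 16.5 ± 2.90, the decoy receptor Bambi at 8.09 ± 0.318 and Rgma at 3.31 ± 0.262.

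Of the SMADs that carry the signal, Smad1 stood at 27.3 ± 0.163 TPM, Smad5 at 12.7 ± 0.523 and the shared partner Smad4 at 11.5 ± 1.17, whereas Smad9 was at 0.86 TPM in replicate 2 and 1.23 TPM in replicate 1 and not counted as detected. The inhibitory Smad6, itself a target of BMP signalling, stood at 6.89 TPM in replicate 2 and 3.29 TPM in replicate 1, a ratio of 2.08-fold that rests on 565 and 278 expected counts, and Smad7 stood at 2.33 and 2.10 TPM. The ubiquitin ligases that mark SMADs and receptors for breakdown were at 7.45 TPM in replicate 2 and 8.05 TPM in replicate 1 for Smurf2 and at 4.23 and 2.97 TPM for Smurf1. Among further targets, Hey1 stood at 8.68 ± 0.106 TPM, Atoh8 at 6.97 ± 0.0212, Id4 at 2.58 ± 0.318 and Msx1 at 1.92 ± 0.177, and Msx2 at 0.145 ± 0.0212 was not detected. Id4 was thus below Id1, Id2 and Id3 in both libraries. The E proteins that ID proteins bind were Tcf4 at 70.7 ± 3.34 TPM, Tcf3 at 53.9 ± 0.233 and Tcf12 at 21.2 ± 1.20.

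**Figure D4:**
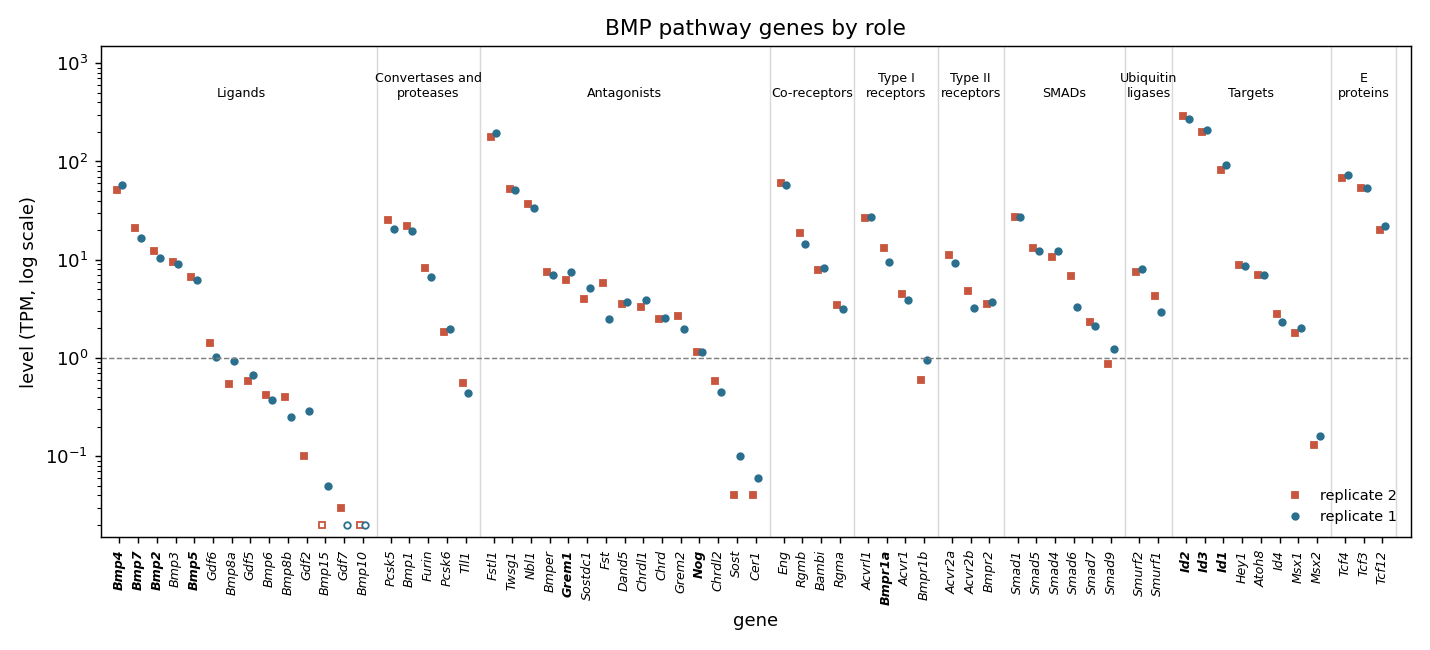
Level in TPM (log scale) in replicate 2 (squares) and replicate 1 (circles) of the 10 BMP genes (bold names) and the 54 further pathway genes, by role, with a dashed line at 1 TPM and open symbols at the bottom for values of 0. Fstl1 at 178 and 194 TPM leads the antagonists, and Id2 at 289 and 273 TPM is the highest of all genes plotted.

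Of the 40 genes of this list that averaged 1 TPM or more, Fst and Smad6 were past 1.5-fold between the libraries, both higher in replicate 2, where 2.38% of all genes were. None was past 1.5-fold lower in replicate 2, where 1.47% of all genes were. The median absolute log2 ratio of the 40 genes was 0.16, against 0.12 for all 13509. Both pools are of the same stage and strain by their labels, and how the 2 values of these genes relate to tissue makeup was not tested.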

How the data were processed

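Extraction was by mirVana, per the labels, with spike-ins, and a SMARTer kit manual for low input is cited. Per the text deposited with the files, reads were assigned on mm10 with GENCODE M4, while the sources used here do not name the aligner or quantifier. Expected counts, as deposited, are unnormalised estimates of reads for each gene or transcript. TPM, as deposited, corrects them for effective length and sums to the same total in each library over genes and spike-ins. The deposited percent is what a transcript takes of its gene's TPM, and the deposited TPM intervals have no stated level. An interval need not hold the deposited TPM: for Id2 in replicate 2 the TPM was 288.89, with an interval of 277.48 to 288.76. Features with numeric identifiers (26248, under 0.0002% of counts) name no gene and were left out.

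Symbols, types and coordinates came from GENCODE M21 on the same assembly, which named 42462 of 43346 gene identifiers. Transcript names are those of M21, and annotated sequences came from its transcripts and, for promoters, RefSeq. Levels, ratios and shares were computed per library and given as mean ± SD (n = 2), where the SD measures the spread of these 2 libraries. Expected counts were rounded for the scalings by edgeR 4.0.16 and DESeq2 1.42.0. Python 3.11.15, pandas 2.3.3, scipy 1.17.1 and R 4.3.3 were used. The code for the library ratio was run on simulated counts with planted changes well past 1.5-fold. Such a run says little about ratios near that call.

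The members and lists were chosen with earlier results of these data known. Named were the 10 members, and of the wider list the highest 2 and the lowest of each role, all genes of roles of 6 or fewer and any past 1.5-fold. Alternatives were other estimates, units, pseudocounts, filters, folds and scalings, and each library left out.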

Additional observations from a re-analysis of the deposited data

How the results depend on the processing

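No paired analysis was possible because the series holds a single group. The numbers of neighbours apart, ratios apart and shared major transcripts stayed within 1.5 times under each alternative run for them. The order itself changed in counts without length, where Bmp4 stood above Id1 and Bmpr1a above Bmp7, both the other way round in TPM. None of the 10 ratios changed sign, though several moved by over 1.5 times on that scale. The median level of the 10 genes, 15.1 TPM, was 18.1 when TPM was rescaled over protein-coding genes not encoded by mitochondria, a change of scale common to all genes, and 17.2 in replicate 2 alone and 13.5 in replicate 1 alone. The share of Bmp4 among the ligands was 43.8% in counts without length. The count of members past 1.5-fold between libraries, 0, became 2 at a difference of 25% and 8 by deposited intervals, a call added after seeing the data, as was the sum of coding transcripts. The same count over all protein-coding genes, 520 of 13509, was 332 with a pseudocount of 1 and 167 at 2-fold. At a difference of 25% it was 1730, and by intervals 3432. By the scaling of edgeR it was 458 and by that of DESeq2 450. Filters also changed the number of genes read, with 227 of 10460 past 1.5-fold at a mean TPM of at least 5. With no filter the count was 1654 of 17686. Detected genes of the wider list, 39, numbered 22 at a TPM of at least 5. Depth limits Nog most, with 53 and 54 counts.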
